A study of Homo sapiens with 15 samples.

Results

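Sequential resistance to 2 antiandrogens was examined in VCaP, an established human prostate cancer cell line with a TMPRSS2-ERG fusion, by comparing the bulk RNA-seq libraries of VCaP-CT-BR-ER with those of VCaP-CT-BR. The 6 libraries, 3 of each subline, were chosen by their titles from the 15 libraries of 5 sublines, and the comparison covered the 19621 genes that passed a filter on low counts. All sublines were grown in RPMI 1640 with 10% charcoal-stripped serum and testosterone. VCaP-T was kept at 10 nM testosterone for 7 months, and VCaP-CT was derived from it over 10 further months at 0.1 nM testosterone. Bicalutamide treatment of VCaP-CT gave VCaP-CT-BR. Cells that no longer responded to bicalutamide were then kept in enzalutamide until they grew again, which gave VCaP-CT-BR-ER. A separate line, VCaP-CT-ER, went from VCaP-CT to enzalutamide at 10 µM without bicalutamide. The treatment labels differ from the written protocol in that they give 10 nM testosterone for all the periods of all sublines and mention enzalutamide also for VCaP-CT-BR, so it is not settled from the labels whether VCaP-CT-BR had met enzalutamide. The bicalutamide dose, and the enzalutamide dose of VCaP-CT-BR-ER, are not given in the sources used here. Each subline is a single derivation, so drug history and any other difference between the derived cell populations cannot be told apart. The p-values rest on the spread between the 3 replicates within a subline, estimated together over all 15 libraries. They do not cover the spread between derivations.

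Bicalutamide and enzalutamide both block androgen signalling, the drive on which most prostate cancer cells depend and which induces genes such as the kallikreins KLK2 and KLK3. Bicalutamide is the older, weaker compound, and enzalutamide was developed for tumours that grow despite such drugs. Cells that resist them are known to restore androgen signalling, to use the glucocorticoid receptor, or to change lineage, for example towards a neuroendocrine state.

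Library totals lay between 37108699 and 41182893 counted fragments, so 3 counts corresponded to 7.28e-08 to 8.08e-08 of a library. Counts were scaled to CPM, counts per 1000000 of the library size after TMM normalisation. Log2 CPM correlated between 0.9955 and 0.9979 within a subline and between 0.965 and 0.9711 across the 2 sublines (12720 genes, genes not being independent replicates). Mitochondrially encoded transcripts took 8.58% to 8.94% of the counts in VCaP-CT-BR-ER and 7.55% to 8.27% in VCaP-CT-BR. The defining markers of other cell types were at or near 0. Summed over 7 immune markers the level was at most 1.14 CPM in any of the 6 libraries, with CD3E and HLA-DRA at 0 counts, and over 4 endothelial markers it was at most 1.57 CPM, with KDR at 0 counts. The 6 fibroblast markers summed to 217 to 250 CPM in VCaP-CT-BR-ER and 24.0 to 25.1 CPM in VCaP-CT-BR, but without LUM the other 5 summed to at most 1.44 CPM, and COL1A2 was at 0 counts. The VCaP markers KRT8, KRT18, EPCAM and ERG were expressed at 212 CPM or more in every library of both sublines. Among the other markers of that list, TMPRSS2 (94.5 to 111 CPM) and KLK3 (13.5 to 42.0 CPM) stood lower.

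The enzalutamide step after bicalutamide moved a large part of the transcriptome by small amounts and a few genes from near silence to high expression or the reverse. Of the 19621 genes, 4169 (21.2%) were higher and 4250 (21.7%) were lower in VCaP-CT-BR-ER (edgeR quasi-likelihood test, Benjamini-Hochberg adjusted p under 0.05). The 3 libraries of VCaP-CT-BR-ER lay above all 3 of VCaP-CT-BR in 26.7% of the genes and below in 26.4%. Changes of at least 2-fold were called in 826 genes upward (4.21%) and 739 downward (3.77%), while 62.0% of all called genes changed by less than 1.5-fold. The median log2 fold change over all genes was 0.003. Since these are bulk libraries, fewer cells expressing a gene and less RNA per cell cannot be told apart.

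**Figure D1:**
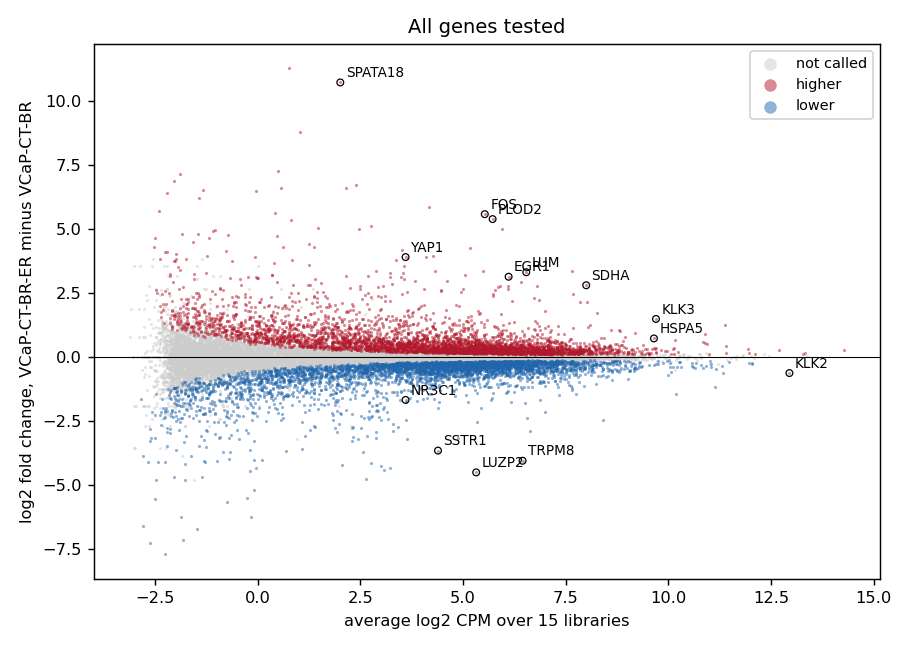
Log2 fold change of VCaP-CT-BR-ER minus VCaP-CT-BR (vertical axis) against the average log2 CPM over the 15 libraries (horizontal axis) for the 19621 genes tested. Points in red (4169 genes) were higher and points in blue (4250 genes) lower at an adjusted p under 0.05, grey points were not called, and circled points carry the names of genes described in the text. SPATA18 lies highest among the circled genes, and LUZP2 lowest.

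The genes that rose most were led by SPATA18, which encodes a mitochondrial quality-control protein. It had 0, 0 and 0.0248 CPM in the VCaP-CT-BR libraries and 20.2, 19.6 and 20.3 CPM in the VCaP-CT-BR-ER libraries, 1 count in all against 2329. The ratio was 2350 with a 95% exact counting interval of 421 to 92800. This and the later intervals of count ratios cover counting error only, and replicates differed by more than that (chi-square per degree of freedom between 3.01 and 11.47). SPATA18 was thus practically absent from the 3 VCaP-CT-BR libraries and at a similar level in all 3 VCaP-CT-BR-ER libraries. NPR3, the clearance receptor for natriuretic peptides, rose from 0.674, 0.759 and 0.768 CPM to 45.7, 41.9 and 42.6 CPM, a log2 fold change of 5.88 ± 0.12 (SE, n = 3 per subline, edgeR adjusted p = 2.0e-19). PLOD2, a lysyl hydroxylase that modifies collagen for cross-linking, rose from 1.4, 1.28 and 1.78 CPM to 60.7, 62.8 and 66.4 CPM (5.40 ± 0.12, adjusted p = 6.7e-19). No library of one subline reached the range of the other in either gene. GPM6A, a neuronal membrane glycoprotein, rose from between 0.744 and 1.17 CPM to between 31.3 and 33.5 CPM (5.02 ± 0.10, adjusted p = 7.5e-18). The epithelial sodium channel subunit SCNN1A rose to between 4.34 and 4.88 CPM from at most 0.181 CPM, and the protocadherin PCDH19 rose to between 16.3 and 17.1 CPM from at most 0.890 CPM. Among the 15 that rose most were also the pseudogene OR4K12P, at 0 counts in all 3 VCaP-CT-BR libraries and at least 18.4-fold higher in VCaP-CT-BR-ER against a floor of 3 counts per library, and the olfactory receptor OR51E2, whose 4 counts became 86 (ratio 21.7, 95% interval 8.17 to 81.4).

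The genes that fell most included several surface proteins and regulators. LUZP2, a leucine zipper protein with high expression in prostate, fell from 117, 102 and 110.4 CPM to 4.76, 4.93 and 4.96 CPM, a log2 fold change of -4.49 ± 0.08 (adjusted p = 2.8e-20). TRPM8, the androgen-regulated cold-sensing channel of prostate epithelium, fell from 90.1, 88.2 and 89.1 CPM to 5.47, 4.8 and 6.0 CPM (-4.04 ± 0.07, adjusted p = 2.8e-20). SSTR1, a somatostatin receptor, fell from 40.2, 44.2 and 44.2 CPM to 3.26, 3.61 and 3.46 CPM (-3.64 ± 0.08, adjusted p = 8.8e-19). In all of these genes the 3 libraries of each subline kept close together and far from the other subline. The transcription factor EBF3 fell 21.0-fold, the neutral endopeptidase MME 17.3-fold, the cancer-testis antigen MAGEA3 27.3-fold, the extracellular matrix protein ADAMTSL1 9.17-fold and the deacetylase HDAC9 8.85-fold, each without overlap between the sublines. CDH17, an intestinal cadherin, went from 108 counts to 5 (ratio 21.4, 95% interval 8.90 to 67.3). MAGEA3 belongs to a family of near-identical X-linked genes, and its counts depend on how fragments that match several members were discarded. Exons of SCNN1A, EBF3, MME and TRPM8 overlap those of a gene on the other strand, and since the counting ignored strand, fragments that hit both genes were left out.

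**Figure D2:**
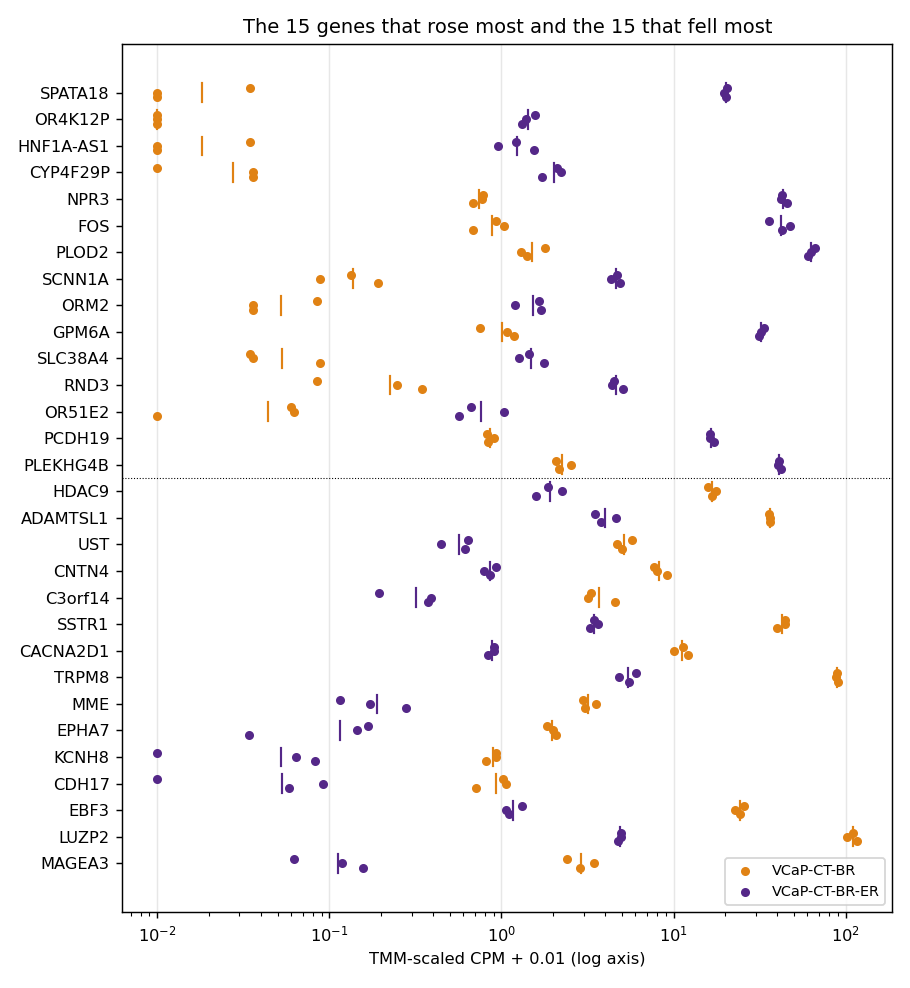
TMM-scaled CPM plus 0.01 (horizontal log axis) of the 15 genes that rose most (above the dotted line) and the 15 that fell most (below it) in each of the 3 VCaP-CT-BR libraries (orange) and the 3 VCaP-CT-BR-ER libraries (purple). Vertical ticks are subline means. In all 30 genes the points of the sublines do not overlap, as the choice of genes required, and NPR3 moves from 0.674 to 0.768 CPM up to 41.9 to 45.7 CPM.

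Androgen-induced genes went in both directions. KLK3, which encodes prostate-specific antigen, rose from 14.4, 14.4 and 13.5 CPM to 38.1, 42.0 and 40.0 CPM (1.5 ± 0.05, adjusted p = 4.7e-15). Every VCaP-CT-BR-ER library stood above the VCaP-CT-BR range. KLK2, the neighbouring kallikrein and also induced by androgen, went the other way, from 5323, 5187 and 4906 CPM to 3351, 3459 and 3274 CPM (-0.61 ± 0.05, adjusted p = 1.7e-09). ACP3, prostatic acid phosphatase, fell alike from between 2841 and 3009 CPM to between 1886 and 1936 CPM. PLPP1, a lipid phosphatase, and AFF3, a transcription elongation factor, rose by 1.80 ± 0.05 and 1.62 ± 0.20 on the log2 scale, while the kallikrein KLK15 fell (-1.16 ± 0.17), as did TRPM8, given above.

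Of 23 tested prostate lineage and ETS factors 8 were higher and 7 lower (34.8% and 30.4%, against 21.2% and 21.7% of all genes). The epithelial factor ELF5 fell most, from between 9.97 and 10.6 CPM to between 4.75 and 5.32 CPM (-1.04 ± 0.09), and the ETS factor ELK3 rose most, from between 4.80 and 5.26 CPM to between 9.30 and 9.41 CPM (0.88 ± 0.09). Other genes tied to prostate cells moved by less. FKBP5, a chaperone of steroid receptors and a common readout of androgen signalling, rose by 0.22 ± 0.05 on the log2 scale. HOXB13, the posterior prostate homeobox factor, was called higher at 0.17 ± 0.06 with an adjusted p of 0.023, a call that was lost without VCaP-CT-BR-ER replicate 2 (0.16, adjusted p = 0.0745) or without VCaP-CT-BR replicate 1 (0.14, adjusted p = 0.0966). TMPRSS2 (0.08 ± 0.05), ERG (0.08 ± 0.05) and the pioneer factor FOXA1 (0.01 ± 0.05) did not pass the test, with overlapping libraries. Without VCaP-CT-BR-ER replicate 2, ERG passed it at 0.14 with an adjusted p of 0.0279.

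Steroid-handling genes and hormone receptors were rearranged. NR3C1, the glucocorticoid receptor, fell from 4.67, 4.89 and 4.81 CPM to 1.92, 1.36 and 1.23 CPM (-1.66 ± 0.15, adjusted p = 1.2e-08), and PGR, the progesterone receptor, fell from between 4.68 and 5.05 CPM to between 1.07 and 1.38 CPM (-2.05 ± 0.14). The lipid-sensing receptor PPARG rose from at most 0.314 CPM to between 2.11 and 2.82 CPM (3.17 ± 0.24). AKR1C3, which makes testosterone from androstenedione, fell 2.48-fold (-1.31 ± 0.13), whereas SRD5A1, which turns testosterone into dihydrotestosterone, rose 1.44-fold (0.52 ± 0.07). SRD5A1 lies on 5p, where its expressed neighbours from ICE1 to TENT4A rose by 0.41 to 0.56 on the log2 scale. Among the UDP-glucuronosyltransferases that clear androgens, UGT2B4 fell from between 8.45 and 10.3 CPM to between 4.23 and 5.17 CPM, and UGT2B15 was not called (0.259, 0.262 and 0.297 CPM against 0.243, 0.217 and 0.262 CPM). UGT2B17 was called lower at -1.49 ± 0.50 (adjusted p = 0.021) on at most 12 counts per library, and the call was lost without VCaP-CT-BR-ER replicate 1 (-1.02, adjusted p = 0.122), VCaP-CT-BR replicate 1 (-1.29, adjusted p = 0.0866) or VCaP-CT-BR replicate 2 (-1.37, adjusted p = 0.0658). UGT2B15 and UGT2B17 are near-identical in sequence, and fragments matching several genes of the family were not counted.

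Immediate early genes, the transcription factors that growth factor and stress signalling switches on within minutes through serum response factor and MAP kinases, were higher after the enzalutamide step. Of 21 tested members of the list, 12 were higher and 2 were lower, with a median log2 fold change of 0.68, against 21.2% higher and 21.7% lower of all genes. Outside the chromosome segments described further on, a count added after seeing the data, 9 members were higher and 2 lower. FOS rose from 0.674, 1.02 and 0.917 CPM to 42.9, 47.7 and 36.0 CPM (5.59 ± 0.29, adjusted p = 1.6e-12). EGR1 rose from 5.60, 5.31 and 5.68 CPM to 46.0, 52.6 and 48.9 CPM (3.15 ± 0.16, adjusted p = 1.1e-12), and FOSB rose from between 0.804 and 1.2 CPM to between 11 and 16 CPM (3.79 ± 0.32). Every VCaP-CT-BR-ER library stood above every VCaP-CT-BR library in all 3 genes. JUNB rose 4.12-fold and JUN 2.67-fold. The fallers were the MAP kinase inhibitor SPRY4 (-1.22 ± 0.16) and PHLDA1, a growth factor-induced gene (-0.34 ± 0.12, adjusted p = 0.030), whose call was lost without any one of 5 libraries, the exception being VCaP-CT-BR replicate 3, with adjusted p-values of 0.0512 to 0.11. The EGR1 promoter is shown because it carries the serum response element that such signalling acts on: the 250 bases before the start (chr5:138465229-138465478, plus strand, RefSeq on GRCh38.p14), with 2 CArG boxes in capitals, the core letters bound by serum response factor.
EGR1: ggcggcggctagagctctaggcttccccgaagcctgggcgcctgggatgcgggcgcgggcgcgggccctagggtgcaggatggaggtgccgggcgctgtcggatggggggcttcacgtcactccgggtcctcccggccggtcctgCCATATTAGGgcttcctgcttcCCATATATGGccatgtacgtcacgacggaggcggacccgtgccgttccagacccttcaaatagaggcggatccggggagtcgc
CArG boxes were found in the 250 bases before the start of 1.44% of 27305 genes in the RefSeq promoter table, and in 2 of the 16 matched members of the list, EGR1 and EGR2, the latter not tested for lack of counts. The match describes the sequence only.

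Genes of the unfolded protein response rose together. This response senses misfolded protein in the endoplasmic reticulum through ATF6, IRE1 and PERK and induces chaperones, folding enzymes and degradation factors. It is prominent in secretory prostate epithelium. Of 24 tested members, 18 were higher and 1 was lower, against 21.2% and 21.7% of all genes, with a median log2 fold change of 0.48. The chaperone HSPA5 (BiP), the main regulator and target of the response, rose from 605, 594 and 611 CPM to 1015, 969 and 1044 CPM (0.74 ± 0.05, adjusted p = 1.2e-10). HERPUD1, a degradation factor, rose from 54.6, 54.2 and 53.2 CPM to 117, 109 and 113 CPM (1.07 ± 0.04, adjusted p = 6.0e-14). MANF, a secreted stress factor, rose from 45.1, 43.7 and 46.9 CPM to 87.3, 87.0 and 90.5 CPM (0.96 ± 0.06). No library of VCaP-CT-BR reached the VCaP-CT-BR-ER range in these genes. CRELD2 rose 1.91-fold, the calcium-binding chaperone CALR 1.51-fold and the transcription factor XBP1 1.38-fold. The single member that fell was CANX, the membrane-bound homologue of CALR, from 1647, 1535 and 1593 CPM to 1216, 1127 and 1210 CPM (-0.43 ± 0.05, adjusted p = 1.1e-06).

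The promoters of HSPA5, CRELD2, CALR and CANX are shown because they share the endoplasmic reticulum stress response element (ERSE), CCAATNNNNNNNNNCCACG, which ATF6 acts on with NF-Y, yet CANX moved against the other 3 genes. Each line gives the 250 bases before the start, 5′ to 3′ on the strand of the gene, from RefSeq on GRCh38.p14, with the ERSE match on either strand in capitals. The windows are chr9:125241344-125241593 (minus strand) for HSPA5, chr22:49918384-49918633 (plus strand) for CRELD2, chr19:12938359-12938608 (plus strand) for CALR and chr5:179698679-179698928 (plus strand) for CANX, one of 4 starts listed for that gene.
HSPA5: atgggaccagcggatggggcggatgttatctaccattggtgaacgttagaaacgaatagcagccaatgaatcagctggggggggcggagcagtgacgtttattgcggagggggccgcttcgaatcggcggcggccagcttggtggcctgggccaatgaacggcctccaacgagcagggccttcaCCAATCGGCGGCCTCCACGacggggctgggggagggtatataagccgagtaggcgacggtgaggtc
CRELD2: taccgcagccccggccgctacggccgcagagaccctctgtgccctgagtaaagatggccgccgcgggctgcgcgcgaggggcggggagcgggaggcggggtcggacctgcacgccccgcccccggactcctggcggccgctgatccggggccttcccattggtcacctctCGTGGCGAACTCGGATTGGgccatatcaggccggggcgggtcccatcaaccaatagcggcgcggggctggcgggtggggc
CALR: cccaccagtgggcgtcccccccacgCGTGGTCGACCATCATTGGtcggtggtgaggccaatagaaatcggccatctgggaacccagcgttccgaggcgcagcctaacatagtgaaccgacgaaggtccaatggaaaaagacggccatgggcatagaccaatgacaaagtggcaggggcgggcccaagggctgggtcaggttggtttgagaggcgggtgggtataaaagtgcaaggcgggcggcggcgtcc
CANX: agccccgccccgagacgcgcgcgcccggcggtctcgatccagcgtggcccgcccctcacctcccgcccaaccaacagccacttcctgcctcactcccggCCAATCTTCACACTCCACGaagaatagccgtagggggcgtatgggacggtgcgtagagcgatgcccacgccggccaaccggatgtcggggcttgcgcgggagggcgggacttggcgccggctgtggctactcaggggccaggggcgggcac
An ERSE match stood in this window in 7 of the 23 matched members (30.4%), and in 25 of 27305 genes (0.0916%) in the table. The 7 genes were HSPA5, CRELD2, CALR, CANX, HSP90B1, PDIA6 and XBP1, of which HSP90B1 rose by 0.55 ± 0.06 and PDIA6 by 0.56 ± 0.05 on the log2 scale. The list was made of known members of the response, its targets among them, so the share of matches is no finding. Of the 7 genes 6 rose while CANX fell.

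Targets of ATF4, the factor that PERK and amino acid shortage induce at the level of translation, were also mostly higher. Of 30 tested members of the ATF4 list, which also holds ATF4 itself, 20 were higher and 1 was lower (66.7% and 3.3%, against 21.2% and 21.7% of all genes). The median log2 fold change was 0.39. The ATF4 transcript itself was not called (488, 488 and 451 CPM against 491, 499 and 484 CPM). GDF15, a stress-induced cytokine, rose from 2.41, 2.67 and 2.78 CPM to 14.9, 9.65 and 11 CPM (2.18 ± 0.19, adjusted p = 7.3e-09). VLDLR, a lipoprotein receptor, rose from between 8.87 and 9.80 CPM to between 31.0 and 33.8 CPM (1.82 ± 0.06). The 3 VCaP-CT-BR-ER libraries of GDF15 varied more among themselves than those of VLDLR, but both genes were clear of VCaP-CT-BR. The stress factor ATF3 rose 3.02-fold, the mTORC1 inhibitor DDIT4 2.79-fold and the glutathione-degrading enzyme CHAC1 2.46-fold. An element of the letters TGATGNAA, which ATF4 binds, stood before the start of 6 of the 25 matched members (24.0%) and of 3.89% of all genes in the promoter table. The list was chosen for targets of ATF4, so the share of matches is no finding. Of the 6 genes ATF3, CEBPG, CHAC1 and SLC1A5 were higher, and ASNS and FGF21 were not called. The member that fell was SLC3A2, the heavy chain of amino acid exchangers (-0.34 ± 0.07, adjusted p = 0.00035).

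**Figure D3:**
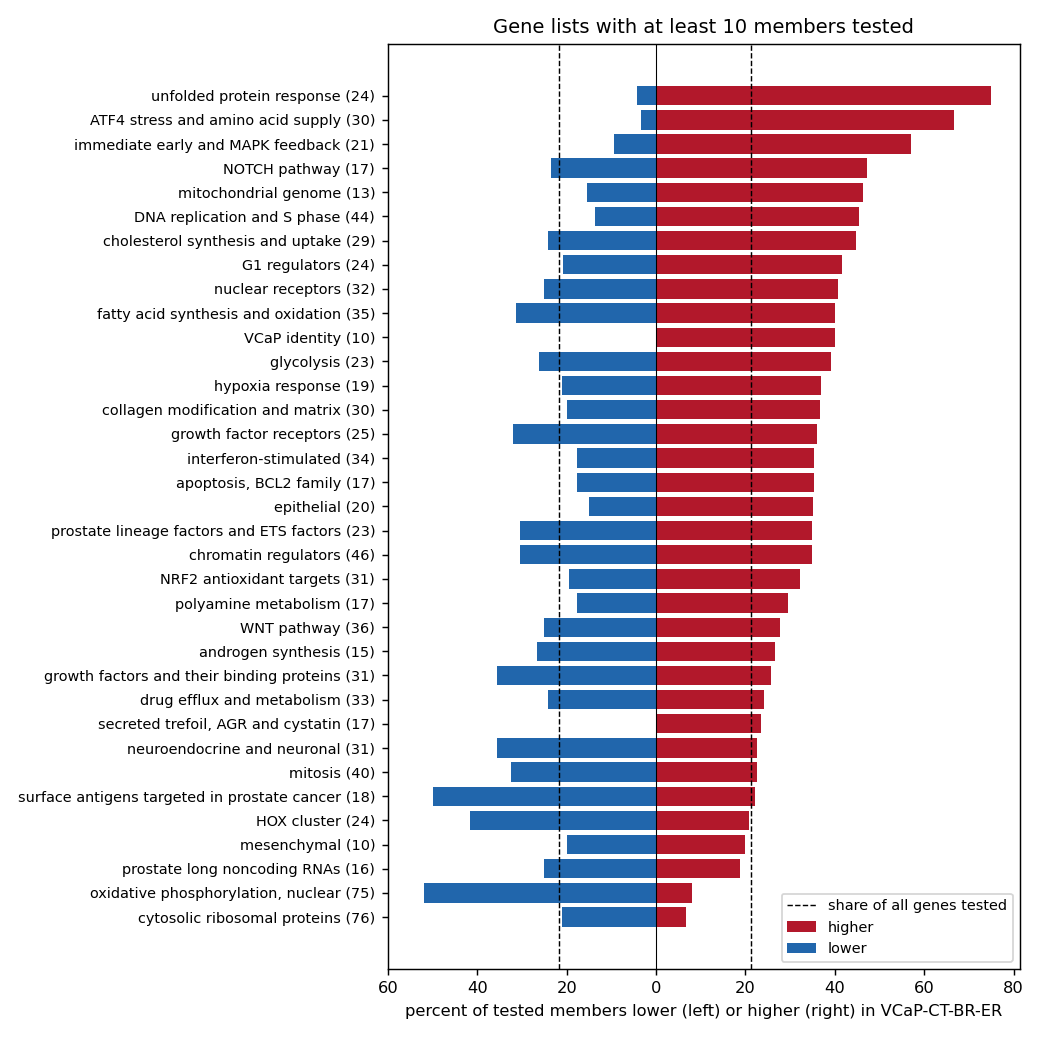
Percent of tested members that were higher (red, to the right) or lower (blue, to the left) in VCaP-CT-BR-ER for gene lists with at least 10 tested members, whose number stands in parentheses. Dashed lines mark the shares over all genes tested, 21.2% higher and 21.7% lower. The unfolded protein response (18 of 24 higher), the ATF4 list (20 of 30) and the immediate early genes (12 of 21) stand at the top. The nuclear genes of oxidative phosphorylation (39 of 75 lower) have the longest bar to the left.

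Nuclear genes of oxidative phosphorylation, the respiratory chain and ATP synthase of mitochondria, moved down. Of 75 tested members 39 were lower and 6 were higher (52.0% and 8.0%, against 21.7% and 21.2% of all genes). The median log2 fold change was -0.17, so the shifts were small. The complex III subunit UQCRQ fell from 164, 178 and 169 CPM to 82.7, 91.5 and 88.2 CPM (-0.96 ± 0.07, adjusted p = 7.2e-10), and the complex I subunit NDUFA2 fell from between 70.3 and 79.6 CPM to between 45.6 and 49.7 CPM (-0.65 ± 0.06). SDHA of complex II went strongly the other way, from 112, 119.8 and 119 CPM to 822, 842 and 809.6 CPM (2.82 ± 0.05, adjusted p = 2.8e-20), and so did the complex I subunit NDUFS6 (2.34 ± 0.07). All 4 of these genes lie in chromosome segments described further on, UQCRQ and NDUFA2 on 5q and SDHA and NDUFS6 at the tip of 5p, and outside the segments, a count added after seeing the data, 37 of the members were lower and 4 higher. SDHA has processed and partial copies elsewhere in the genome, including SDHAP3 on the same chromosome arm, and fragments shared with them were not counted. Of the 13 mitochondrially encoded mRNAs, 6 were higher (46.2%), among them MT-CO1 of complex IV (0.31 ± 0.05). Another 2 were lower (15.4%), led by MT-ND6 of complex I (-0.34 ± 0.06). The 6 became 2 without VCaP-CT-BR-ER replicate 3 or VCaP-CT-BR replicate 3, and 3 without VCaP-CT-BR replicate 2. The share of all mitochondrial counts moved up beside them, as given above, and its part in these calls was not tested.

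Cell cycle genes changed by small amounts. Of 44 genes of DNA replication 20 were higher and 6 lower (45.5% and 13.6%, median 0.12), against 21.2% and 21.7% of all genes. They were led by the S phase repressor E2F8 (0.68 ± 0.08) and, downward, by the primase-polymerase subunit POLA2 (-0.59 ± 0.04). Of 40 genes of mitosis 9 were higher and 13 lower (22.5% and 32.5%, median -0.05), the upward share being near that of all genes. The kinase NEK2 stood highest (0.36 ± 0.07). The kinetochore motor CENPE fell from 165, 132 and 129.5 CPM to 70.2, 77.0 and 66.3 CPM (-1.0 ± 0.08, adjusted p = 3.9e-09). Cytosolic ribosomal protein genes were lower in 16 and higher in 5 of 76, which is below the background in the upward direction and near it in the downward direction. The 16 became 10 without VCaP-CT-BR-ER replicate 1, and the 5 became 2 without VCaP-CT-BR-ER replicate 2, 3 without VCaP-CT-BR-ER replicate 1 or VCaP-CT-BR replicate 3, 3 with protein-coding genes only and 12 without the filter on low counts.

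Neuroendocrine and neuronal genes did not move one way. Of 31 tested, 7 were higher and 11 lower (22.6% and 35.5%, against 21.2% and 21.7% of all genes), with GPM6A at the top. These became 3 and 7 where every library had to hold 10 counts. SYP, the synaptic vesicle protein used as a neuroendocrine marker, fell from 6.04, 6.54 and 5.23 CPM to 2.11, 2.41 and 1.84 CPM (-1.48 ± 0.13, adjusted p = 5.0e-09), and the granin-family gene SCG3 fell 3.08-fold. ENO2 was not called (54.7, 55.5 and 53.0 CPM against 53.7, 57.7 and 59.6 CPM). CHGA, the classical neuroendocrine marker, had 0 counts in all 6 libraries and was not tested.

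Surface receptors that can carry growth signals or serve as drug targets changed in both directions. ERBB2 (HER2) rose from 15.4, 17.2 and 16.7 CPM to 42.7, 40.9 and 38.4 CPM (1.31 ± 0.07, adjusted p = 2.9e-12), and RET, the receptor for glial-derived factors, rose 2.44-fold at low levels. EPHA7, an ephrin receptor, fell from 2.07, 1.99 and 1.83 CPM to 0.0243, 0.136 and 0.157 CPM (-4.21 ± 0.26, adjusted p = 4.5e-11), and the collagen receptor DDR2 fell 3.58-fold. Of 25 growth factor receptors tested 9 were higher and 8 lower (36.0% and 32.0%, against 21.2% and 21.7% of all genes). Among 18 surface antigens targeted in prostate cancer 4 were higher and 9 lower (22.2% and 50%), with FOLH1, which encodes prostate-specific membrane antigen, falling from 46.2, 43.5 and 42.1 CPM to 21.8, 25.4 and 24.7 CPM (-0.88 ± 0.08, adjusted p = 2.2e-08) and the adhesion molecule L1CAM falling 2.71-fold. In the WNT pathway 10 of 36 were higher and 9 lower (27.8% and 25%), near the shares over all genes. The non-canonical ligand WNT5A fell 8.64-fold, and of the nuclear partners of beta-catenin one went down and one up, LEF1 falling from between 307 and 313 CPM to between 125 and 135 CPM and TCF7L2 rising from between 1.58 and 2.18 CPM to between 8.34 and 9.01 CPM. YAP1, the transcriptional effector of the Hippo pathway, rose from 3.34, 2.83 and 2.92 CPM to 46.7, 44.7 and 46.2 CPM (3.92 ± 0.10, adjusted p = 2.2e-17).

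Matrix genes contained some of the strongest single changes. Of 30 tested collagen-modifying and matrix genes 11 were higher (36.7%) and 6 lower, against 21.2% and 21.7% of all genes. The downward share was thus near that of all genes. PLOD2 led the list upward, followed by the fibrillar collagen chain COL5A2. COL5A2 rose from 10.1, 9.99 and 9.62 CPM to 35, 36.0 and 34.3 CPM (1.82 ± 0.08, adjusted p = 8.0e-14). LUM, which encodes the collagen-binding proteoglycan lumican and was entered as a fibroblast marker, rose from 23.4, 23.9 and 23.2 CPM to 215, 248 and 244 CPM (3.33 ± 0.10, adjusted p = 3.0e-16). The fibroblast marker DCN (a neighbour of LUM in the genome) was at 0.0519 to 0.198 CPM and 0.340 to 0.498 CPM, and COL1A2 had no count, so the other fibroblast markers were at or near 0 where LUM was high. VWF, an endothelial marker, fell from between 0.778 and 1.33 CPM to between 0.0729 and 0.163 CPM.

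The remaining lists are given as counts, to be read against 21.2% higher and 21.7% lower of all genes. Of 29 genes of cholesterol synthesis and uptake 13 were higher and 7 lower (44.8% and 24.1%, median 0.12), and of 35 genes of fatty acid synthesis and oxidation 14 were higher and 11 lower (40.0% and 31.4%, median 0.05). The NOTCH pathway, a cell-contact signalling route, had 8 of 17 members higher and 4 lower (47.1% and 23.5%). The HOX cluster genes, which set position along the body axis, had 5 of 24 higher and 10 lower (20.8% and 41.7%, median -0.15), and 3 higher without VCaP-CT-BR-ER replicate 2. Of 17 tested secreted trefoil, AGR and cystatin genes 4 were higher (23.5%) and none was lower, and of 34 interferon-stimulated genes 12 were higher and 6 lower (35.3% and 17.6%). Of the 10 VCaP identity genes 4 were higher and none was lower.

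Along the chromosomes, changes of neighbouring genes were shared over long stretches. DNA copy number was not measured here. The stretches were chosen after the values were seen, so their counts and medians are descriptions without a test. At the tip of the short arm of chromosome 5, from PLEKHG4B to IRX2-DT (chr5:92151-2755397, GRCh38, 2.66 Mb), 31 of 34 tested genes were higher and none was lower, against 21.2% and 21.7% of all genes (adjusted p under 0.05, edgeR). All 25 genes whose mean log2 CPM was 1 or more were higher there, with a median log2 fold change of 2.59 (quartiles 2.27 and 2.77), about 6.02-fold. TRIP13, an ATPase of the mitotic checkpoint, rose from 58.5, 55.5 and 59.8 CPM to 399, 398 and 393 CPM (2.77 ± 0.05, adjusted p = 2.8e-20). BRD9, a subunit of a chromatin remodelling complex, rose from 38.0, 37.3 and 37.2 CPM to 279, 298 and 291 CPM (2.95 ± 0.05). TERT, the catalytic subunit of telomerase, rose from 0.441, 0.183 and 0.372 CPM to 3.74, 2.87 and 2.86 CPM (3.24 ± 0.27, adjusted p = 4.6e-09). In every gene named from this stretch the sublines did not overlap, and the log2 fold changes of the 25 genes ran from 1.79 in SLC9A3-AS1, which overlaps SLC9A3, to 4.2 in PLEKHG4B at the chromosome end. CLPTM1L stood at 2.38 ± 0.06, the homeobox gene IRX4 at 2.69 ± 0.10 and IRX2-DT, the innermost, at 2.27 ± 0.16. BRD9 and TRIP13 overlap on opposite strands, and the counting did not use strand. The next expressed gene inward, ICE1, which starts at position 5420664, rose by only 0.49 ± 0.06. Relative to the VCaP-CT-BR mean, the median of the 25 genes was 2.57, 2.57 and 2.56 on the log2 scale in the VCaP-CT-BR-ER libraries, and between -0.41 and 0.15 in the libraries of VCaP-T, VCaP-CT and VCaP-CT-ER, so the high level was seen in VCaP-CT-BR-ER alone among the 5 sublines.

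Longer stretches shifted by less. Segments were built from runs where the running median of 25 expressed genes passed 0.5 in size. Runs no more than 60 expressed genes apart were joined, and stretches under 20 genes were left out. A segment can therefore hold parts where the running median did not pass 0.5. The tip of 5p was set by gene instead. On 5q, from CAST to PCDH1 (chr5:96525267-141879246), 191 of 280 tested genes were lower and 11 higher, and the median over the 191 expressed genes was -0.55. CHD1, a chromatin remodeller that is often deleted in prostate cancer, fell there from 129, 118 and 121 CPM to 49.1, 45.5 and 48.3 CPM (-1.37 ± 0.06, adjusted p = 5.2e-14). EGR1 lies in the same segment and rose, as given above. On 6p, from STK38 to PLA2G7 (chr6:36493892-46735693), 76 of 115 genes were lower (median -0.59), among them the angiogenic factor VEGFA, which fell from 77.4, 79.6 and 72.2 CPM to 34.6, 36.3 and 33.6 CPM (-1.13 ± 0.06, adjusted p = 8.2e-13). On 11q, in a shorter stretch, 33 of 49 were lower (median -0.51). On 8p, from SOX7 to MAK16 (chr8:10723768-33501260), 84 of 130 genes were higher and 4 lower (median 0.57). The 5 segments together held 608 tested genes, and outside them 4033 genes were higher and 3946 lower of 19013. In the other sublines these segments were not at the VCaP-CT-BR level throughout. Against the VCaP-CT-BR mean, the 5q median was -0.56 to -0.51 in VCaP-T and -0.13 to -0.09 in VCaP-CT, and the 8p median was 0.68 to 0.72 in VCaP-T and -0.04 to -0.01 in VCaP-CT. In VCaP-CT-ER against VCaP-CT, a comparison without shared libraries, the medians were -0.56 on 5q, -0.68 on 6p, -0.67 on 11q and 0.48 on 8p, and -0.46 at the tip of 5p.

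**Figure D4:**
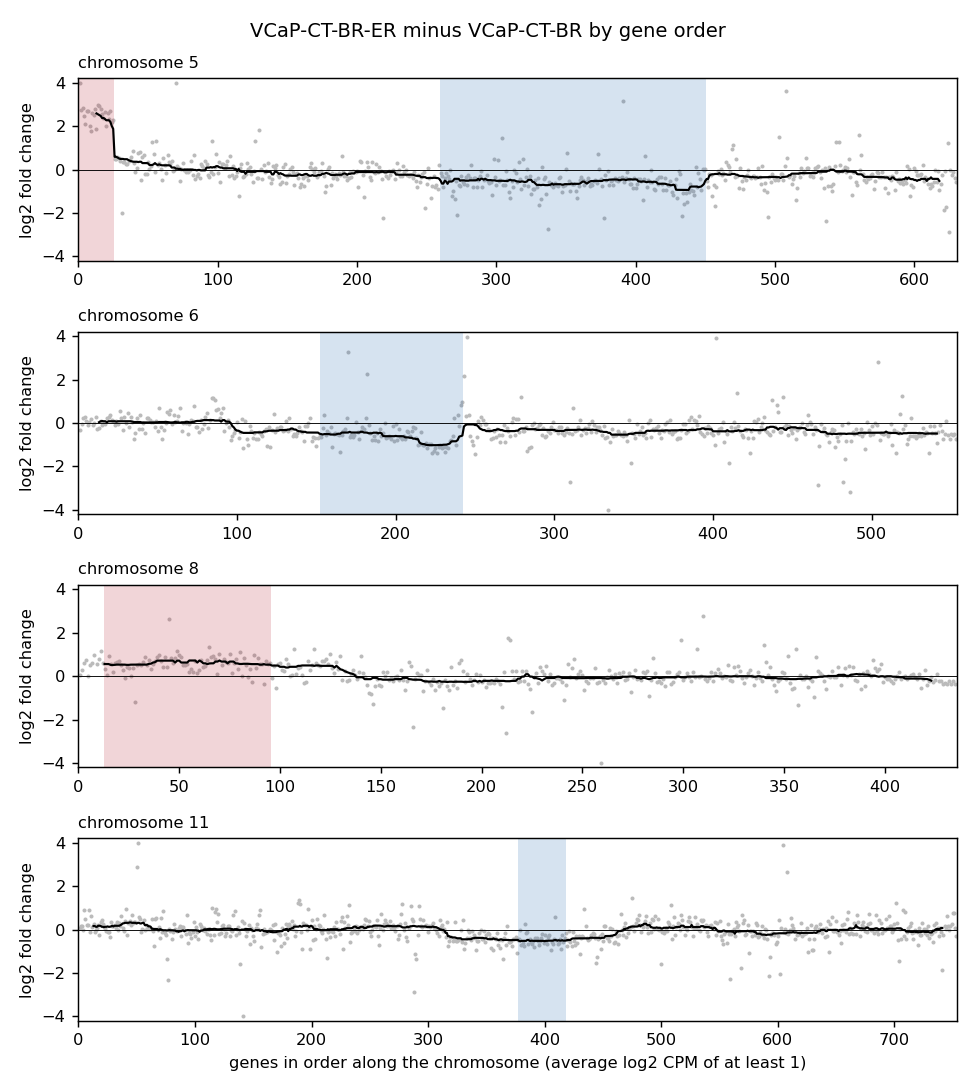
Log2 fold change of VCaP-CT-BR-ER minus VCaP-CT-BR (vertical axis, points drawn at 4 or -4 where larger) for genes whose mean log2 CPM was 1 or more, in their order along chromosomes 5, 6, 8 and 11 (horizontal axis). The black line is the running median of 25 genes, and shaded stretches are the segments described in the text, raised in red and lowered in blue. The first 25 genes of chromosome 5 stand apart at a median of 2.59.

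The same drug was met by another route in VCaP-CT-ER, and the difference between the 2 enzalutamide steps was tested as an interaction between the 4 sublines in the fit of all 15 libraries. The difference passed the test in 4949 genes (25.2%) towards VCaP-CT-BR-ER and 4804 (24.5%) towards VCaP-CT-ER. From VCaP-CT to VCaP-CT-ER, 29.6% of the genes were higher and 31.2% lower. Of the 4169 genes higher after bicalutamide, 1998 (47.9%) were also higher in the direct step, which is 34.4% of the 5811 higher there, and 1005 (24.1%) were lower there. Of the 4250 lower genes, 2051 (48.3%) were also lower in the direct step, 33.5% of the 6130 lower there, and 997 (23.5%) were higher there.

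Several of the leading genes rose in both steps but by different amounts. KLK3 rose by 3.97 ± 0.05 in the direct step (difference -2.47 ± 0.07), PLOD2 by 8.49 ± 0.13 (-3.09 ± 0.24), GPM6A by 10.37 ± 0.12 (-5.35 ± 0.25) and LUM by 4.97 ± 0.12 (-1.64 ± 0.15). HERPUD1, HSPA5, EGR1 and ATF3 rose in both steps without a called difference, with values of 1.00 ± 0.04, 0.88 ± 0.05, 2.90 ± 0.14 and 1.53 ± 0.12 in the direct step. These genes do not stand for their lists. In the direct step 20 of 24 unfolded protein response genes were higher and 0 lower (median 0.66). Of the 30 genes of the ATF4 list 15 were higher and 4 lower there (median 0.11). Of 21 immediate early genes 8 were higher and 8 lower there (median 0.09). The shares over all genes were 29.6% and 31.2%. FOS rose more after bicalutamide, from a start of 0.871 CPM on average against 18.2 CPM in VCaP-CT (difference 2.5 ± 0.38, adjusted p = 1.5e-05).

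Other genes went opposite ways. BHLHE41, a circadian repressor, rose after bicalutamide from 5.88, 6.65 and 6.02 CPM to 18.8, 17.4 and 17.6 CPM and fell in the direct step by 3.99 on the log2 scale (difference 5.53 ± 0.11, adjusted p = 1.0e-18). NQO1, a quinone reductase of the antioxidant response, rose after bicalutamide (0.62 ± 0.12) and fell in the direct step (-4.67 ± 0.24). The morphogen SHH fell from 10.7, 11.1 and 11.1 CPM to 2.38, 2.74 and 2.83 CPM after bicalutamide and rose by 4.39 ± 0.12 in the direct step (difference -6.44 ± 0.16, adjusted p = 2.0e-17). The neural cell adhesion molecule NRCAM (-2.52 against 2.95), the secreted peptidase inhibitor PI15 (-2.60 against 4.88) and the neuropeptide-processing enzyme CPE (-0.50 against 2.40) followed the same pattern. NR3C1 fell after bicalutamide and rose by 1.28 ± 0.14 in the direct step (difference -2.94 ± 0.20, adjusted p = 1.8e-10), so that its levels ended at 1.5 CPM in VCaP-CT-BR-ER and 5.50 CPM in VCaP-CT-ER. AKR1C3 likewise fell in one and rose in the other (difference -3.71 ± 0.17). The genes of the 5p tip, such as SDHA (difference 3.27 ± 0.07) and PLEKHG4B (6.14 ± 0.20), differed with the whole stretch. PBLD (-0.28 against 3.71) and the long noncoding RNA PCAT1 (-0.58 against -3.58) differed mostly through the direct step.

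**Figure D5:**
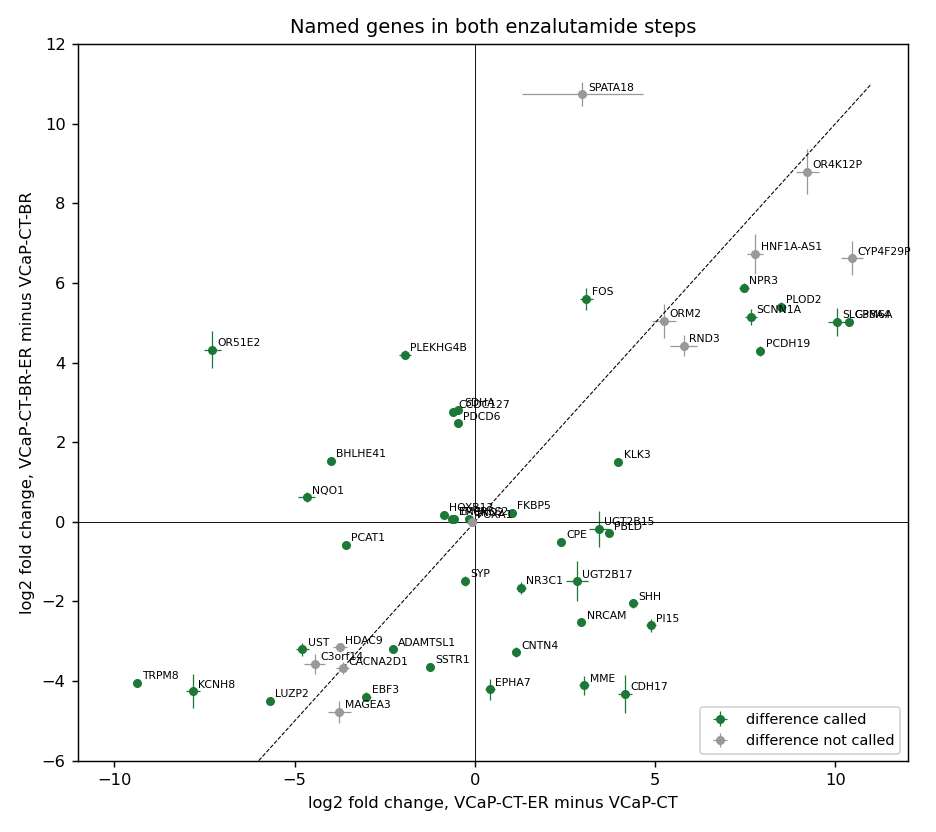
Log2 fold change ± SE of genes named by a rule in the step after bicalutamide (vertical axis) and in the step from VCaP-CT to VCaP-CT-ER (horizontal axis). Green points passed the test of the difference between the steps, grey points did not, and the dashed line marks equal change. SHH, NRCAM, PI15, MME and CDH17 lie in the lower right, falling after bicalutamide and rising in the direct step, and BHLHE41, NQO1 and OR51E2 in the upper left.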

How the data were processed

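RNA of 5 VCaP sublines was sequenced in 3 replicates each on an Illumina HiSeq. The authors deposited raw fragment counts per gene, made with STAR 2.5.4b on GRCh38 and featureCounts 1.6.2 with GENCODE annotation, paired and unstranded, leaving out fragments that matched several places or genes. Symbols were matched by Ensembl ID for 57754 of 58381 genes.

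Counts of all 15 libraries were fitted together with edgeR 4.0.16 (TMM, filterByExpr with a minimum count of 10, quasi-likelihood F-test, 1 term per subline, Benjamini-Hochberg adjustment at 0.05), giving all adjusted p-values in the text. SE is the log2 fold change divided by the square root of F. CPM is TMM-scaled. Promoters came from RefSeq (GRCh38.p14). In simulated counts for this comparison, on 19363 genes, 49 of 50 genes changed 2-fold and 35 of 50 changed 1.25-fold were called, with 12 of 19163 unchanged genes. Far fewer genes changed there than were called in the data, and none of the lowest expressed genes was changed. These rates therefore need not hold for the real comparison.

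The members and the 40 gene lists were chosen with earlier results of these data known. Named were, in each direction, the 15 largest changes among called genes with a mean log2 CPM of 1 or more and no overlap, the top 2 called per direction of each list, the top 5 per direction of the difference between steps, the genes at segment ends and a fixed set of androgen-related and lineage genes. KLK2, ACP3, EGR1, JUN, JUNB, HSPA5, CRELD2, HSP90B1, PDIA6, XBP1, ATF3, ATF4, CHAC1, YAP1, DCN, KRT8, KRT18 and EPCAM, and within the tip of 5p TERT, BRD9, TRIP13, CLPTM1L, IRX4 and ICE1, were chosen after their values were seen. Alternatives were DESeq2 1.42.0, other scalings and filters, a replicate block and leaving out each library. Some items are not reported here.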

Additional observations from a re-analysis of the deposited data

Results flagged for a closer look

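The change of each named gene in the enzalutamide step after bicalutamide was set against its change in the direct step to VCaP-CT-ER, and the genes whose 2 changes differed (edgeR interaction, adjusted p under 0.05) are given with the difference, the log2 fold change after bicalutamide minus that of the direct step. A difference was called in 49.7% of all genes tested, so a call is common, and its size is the more informative value. What the differences come from was not tested.

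Called lower after bicalutamide and higher in the direct step were CDH17 (-8.48), PI15 (-7.49), MME (-7.14), SHH (-6.44), NRCAM (-5.47), EPHA7 (-4.62), UGT2B17 (-4.32), PBLD (-4.0) and AKR1C3 (-3.71). Further such genes were NR3C1 (-2.94), CPE (-2.89), SPRY4 (-2.12), LEF1 (-1.79), MT-ND6 (-1.52), FOLH1 (-1.44), SLC3A2 (-1.03) and CANX (-0.8).

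Called higher after bicalutamide and lower in the direct step were ICE1 (0.88), HOXB13 (1.03), SRD5A1 (1.46), CLPTM1L (2.65), NDUFS6 (2.7), TRIP13 (2.96), BRD9 (3.09), IRX2-DT (3.23) and IRX4 (3.24). Further such genes were SDHA (3.27), COL5A2 (3.84), TERT (4.78), RET (5.28), NQO1 (5.29), BHLHE41 (5.53), PLEKHG4B (6.14) and OR51E2 (11.6).

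Genes higher in both steps, by different amounts, were GPM6A (-5.35), PCDH19 (-3.62), PLOD2 (-3.09), SCNN1A (-2.51), KLK3 (-2.47), PPARG (-2.28), LUM (-1.64), NPR3 (-1.58) and VLDLR (-1.43). Further such genes were FKBP5 (-0.8), HSP90B1 (-0.73), NEK2 (-0.53), MANF (-0.41), CALR (0.25), PLPP1 (0.41), AFF3 (0.81), JUNB (0.95) and ERBB2 (1.04). The list went on with GDF15 (1.35), YAP1 (1.5) and FOS (2.5).

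Genes lower in both steps, by different amounts, were SSTR1 (-2.39), EBF3 (-1.38), SYP (-1.22), CHD1 (-1.07), ADAMTSL1 (-0.92), UQCRQ (-0.41), NDUFA2 (0.27), ACP3 (0.42) and LUZP2 (1.21). Further such genes were PGR (2.44), VWF (2.64), PCAT1 (3.0) and TRPM8 (5.35).

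Called only in the step after bicalutamide were CENPE (-0.97), KLK2 (-0.71), POLA2 (-0.54), XBP1 (0.5), ELK3 (0.92), JUN (1.5), DDIT4 (1.58) and TCF7L2 (2.03). Called only in the direct step were UGT2B15 (-3.61), ENO2 (0.23), ERG (0.67) and TMPRSS2 (0.7).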

How the results depend on the processing

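Between 7216 and 8645 genes were called under the 8 alternatives (8419 as reported), with 8130 by DESeq2. Leaving out 1 library gave 7361 to 7818, of which 3776 to 3963 were higher and 3575 to 3855 lower, and 9029 to 9817 for the difference between the steps, with 4529 to 4879 higher and 4433 to 4938 lower. With a change of at least 2-fold also required, 1565 genes remained, 826 higher and 739 lower, and where every library also had to hold 10 counts these were 414 and 340, as fewer genes were tested. Scaling by library size alone split the difference between steps into 4420 higher and 5471 lower. FOXA1, not called, went from 0.008 to -0.007 with protein-coding genes only and to -0.007 without VCaP-CT-BR-ER replicate 1, and was 0.036 without VCaP-CT-BR replicate 3. PHLDA1 was not called by DESeq2 (adjusted p = 0.0835) or without the filter (0.124), and PBLD not without VCaP-CT-BR-ER replicate 3 (0.066). Of 1200 list counts under alternatives 48 moved by over 1.5 times, and the cause was not tested. Same-numbered replicates did not deviate together in every case (correlations 0.081, 0.387 and -0.103 over 12720 genes). Deviations from the mean of 3 libraries constrain each other, so these correlations cannot decide whether the numbers pair the samples. The replicate block gave 8378 calls (4155 higher, 4223 lower) and 9659 for the difference. Genes under about 12 counts a library carry the widest errors.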
